A study of Mus musculus with 24 samples.

Results

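The genes described here are 10 members of the EGF (epidermal growth factor) signalling family: the 6 ligand genes Ereg, Areg, Hbegf, Tgfa, Btc and Nrg1, the 3 receptor genes Egfr, Erbb2 and Erbb3, and Lrig1, which encodes a membrane protein that restrains the receptors. They were chosen by gene symbol from the 24346 symbols measured in every library. All 10 members passed the filter on low values (at least 1 FPKM in at least 4 of 24 libraries), as did 13799 genes in all. FPKM counts sequenced fragments, corrected for transcript length and for the mapped total of the library. This puts genes of unlike length on 1 scale. The sum of FPKM over all genes can differ between libraries, so comparisons between libraries depend on the scaling. Some results changed when values were rescaled to an equal sum per library (TPM), as given below.

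The study was a chemical carcinogenesis experiment in mice that set animals labelled KO for the transcription factor c-MAF against WT animals. All 24 colorectal libraries, controls included, came from mice given AOM (azoxymethane, a carcinogen) and DSS (dextran sodium sulfate, which injures the colon lining), so no library is from an untreated mouse. The labels give 5 title groups in each tissue. The 3 KO groups, called KO-1-hetero, KO-8-homo and KO-8-hetero, had 3 tumor and 2 normal libraries each, WT-young had 4 tumor and 2 normal libraries, and WT-old had 1 tumor and 2 normal libraries. This gives 9 KO and 5 WT tumors, and 6 KO and 4 WT normal samples. The labels do not give what the numbers 1 and 8 stand for, the allele, the promoter or cell type of any Cre, the sex, the ages behind young and old, or whether samples came from separate animals. The p-values therefore measure the spread between these samples, which may in part be technical.

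EGF family ligands are made as membrane-bound precursors, are cut free by metalloproteases of the ADAM family, and bind receptor tyrosine kinases that pair up and signal through RAS, ERK and AKT. Areg, Tgfa and Egf bind EGFR, Ereg, Hbegf and Btc bind EGFR and ERBB4, and Nrg1 binds ERBB3 and ERBB4. ERBB2 has no known ligand of its own and serves as a partner of the others, whereas ERBB3 has little kinase activity and signals through its partners. In the colon this signalling drives growth and repair of the epithelium after injury, and Lrig1 marks stem and progenitor cells at the crypt base as well as limiting receptor levels.

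Ereg, Areg and Btc lie in 1 gene cluster on chromosome 5 together with Epgn, a further family ligand. In GRCm38.p6, the assembly that UCSC calls mm10, Ereg spans 91074617 to 91093649, Areg 91139599 to 91148432 and Btc 91357261 to 91402994. RefSeq promoter windows were matched for 6 of the 10 members (Areg, Tgfa, Btc, Egfr, Erbb2 and Lrig1). The 250 bases before the start are shown for these neighbours, Areg and Btc. Areg was chosen as the most abundant ligand by median FPKM, and Btc because its KO tumors all lay above the KO normal samples. Areg is on the plus strand at chr5:91139349-91139598, and Btc is on the minus strand at chr5:91402995-91403244. Capitals mark a CRE, a GC box and a TATA box, in that order.
Areg: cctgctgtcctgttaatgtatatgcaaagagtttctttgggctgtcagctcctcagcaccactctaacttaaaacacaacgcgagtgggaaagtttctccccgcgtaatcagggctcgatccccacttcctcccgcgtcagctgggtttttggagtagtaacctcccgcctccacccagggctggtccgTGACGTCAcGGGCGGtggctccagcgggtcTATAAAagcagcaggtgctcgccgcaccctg
Btc: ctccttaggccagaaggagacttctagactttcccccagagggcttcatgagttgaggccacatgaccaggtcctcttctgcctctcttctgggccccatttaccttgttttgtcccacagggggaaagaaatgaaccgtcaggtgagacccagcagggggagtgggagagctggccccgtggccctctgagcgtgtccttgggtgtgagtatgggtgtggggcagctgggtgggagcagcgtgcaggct

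Both strands of the windows were searched for 5 motifs, and the share of all 27025 RefSeq mouse promoters of the same 300-base length (250 before to 50 after the start) that hold each was counted. The CRE, TGACGTCA, is in 1.88% of promoters and lies at -61 in Areg. The GC box, GGGCGG, is in 35.9% of promoters and lies at -52 in Areg and, past the printed stretch, at 37. The Tgfa, Egfr and Lrig1 windows also hold it. The TATA box, TATAAA, is in 14.2% of promoters and lies at -31 in Areg. AP-1 letters, TGANTCA (7.93% of promoters), and TCF/LEF letters, CTTTGAT (3.72%), were in none of the 6 windows. The Btc window held none of the 5 motifs. The GC content of the printed stretch was 57.2% in Areg and 59.6% in Btc.

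Several facts of the whole series touch these genes. Relative sequencing depth, taken from the most frequent ratio of low FPKM values between libraries, ranged 2.69-fold over the libraries, from 0.693 to 1.87. WT normal samples lay at 0.693 to 0.853, KO normal samples at 0.829 to 1.21, WT tumors at 0.901 to 1.23 and KO tumors at 0.847 to 1.87. Maf, the targeted gene, lay at 2.62 to 7.4 FPKM in KO tumors and 1.63 to 7.26 FPKM in WT tumors, and at 1.52 to 6.27 FPKM in KO and 1.37 to 2.82 FPKM in WT normal samples. It was thus not lower under the KO label, so KO stands below for libraries labelled KO. Xist reached 1 FPKM in 6 libraries, all from heterozygous KO mice (2 tumors and 4 normal samples). Tissue composition differed between tumor and normal tissue. Summed absorptive colonocyte markers were 433 to 3724 FPKM in KO tumors against 4335 to 10296 in KO normal samples, and 621 to 2431 in WT tumors against 5311 to 19297 in WT normal samples, and 5 of 6 were called lower under both labels. Summed smooth muscle markers were 235 to 1280 FPKM in KO tumors against 1390 to 4506 in KO normal samples, and 172 to 2852 against 919 to 7073 with the WT label, and 6 of 6 were called lower under both labels. Summed neutrophil markers were 83.7 to 1795 FPKM in KO tumors against 5.63 to 30.5 in KO normal samples, and 41.5 to 521 against 3.63 to 13.2 with the WT label, and 5 of 5 were called higher under both. Summed goblet cell markers were 956 to 4979 FPKM in KO tumors against 5202 to 12957 in KO normal samples (4 of 5 called lower), and 1328 to 3510 against 4222 to 7319 with the WT label (2 of 5 called lower). Summed macrophage markers were 450 to 1773 FPKM in KO tumors against 342 to 692 in KO normal samples, and 273 to 1478 against 202 to 372 with the WT label, and 3 of 6 were called higher under both. Summed epithelial markers were 4406 to 8467 FPKM in KO tumors (median 5590) against 7102 to 13867 in KO normal samples (median 7796). With the WT label they were 3928 to 10182 in tumors (median 6576) against 5666 to 9846 in normal samples (median 8417). The ranges overlapped under both labels. Epithelial and colonocyte markers were present in all libraries. The part of these shifts in the results below was not tested. In bulk samples, fewer cells of a type and less RNA per cell cannot be told apart. The single WT-old tumor stood apart, with 2852 FPKM of smooth muscle markers against 172 to 368 in the WT-young tumors, so results are also given without WT-old libraries where that matters.

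In tumors against normal tissue, Btc and Nrg1 were called higher and Lrig1 and Erbb2 lower under both labels. With TPM rescaling Erbb2 lost its call under both labels and Lrig1 with the KO label. The WT calls of Btc, Nrg1 and Erbb2 were also lost under some other settings or left-out libraries, as given below. Of the 6 ligand genes 2 passed the limma test, both higher, with the WT label, and 6 passed, all higher, with the KO label. With the WT label 4 of the 10 members passed the limma test at an adjusted p below 0.05 (2 higher, 2 lower), where 30.4% of all tested genes did. With the KO label 9 of 10 passed (7 higher, 2 lower), where 47.2% of all genes did. The median log2 difference of the members was 0.37 in WT and 0.84 in KO, and that of all genes was 0.02 in both. The log2 differences are on the scale of log2(FPKM + 1), which understates changes of low genes. Without the 3 WT-old libraries 2 members passed with the WT label, where 19.4% of all genes did. Without the 6 libraries with Xist of at least 1 FPKM 3 members passed with the KO label, where 26.6% of all genes did. Only 2 normal samples were left, both of KO-8-homo, while heterozygous tumors stayed in. Here and below, leaving out these libraries therefore also changed the KO title groups behind the normal samples. The WT count also fell to 2 without WT-young tumor replicate 1 or WT-young normal replicate 2, and to 1 without WT-old normal replicate 1.

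**Figure D1:**
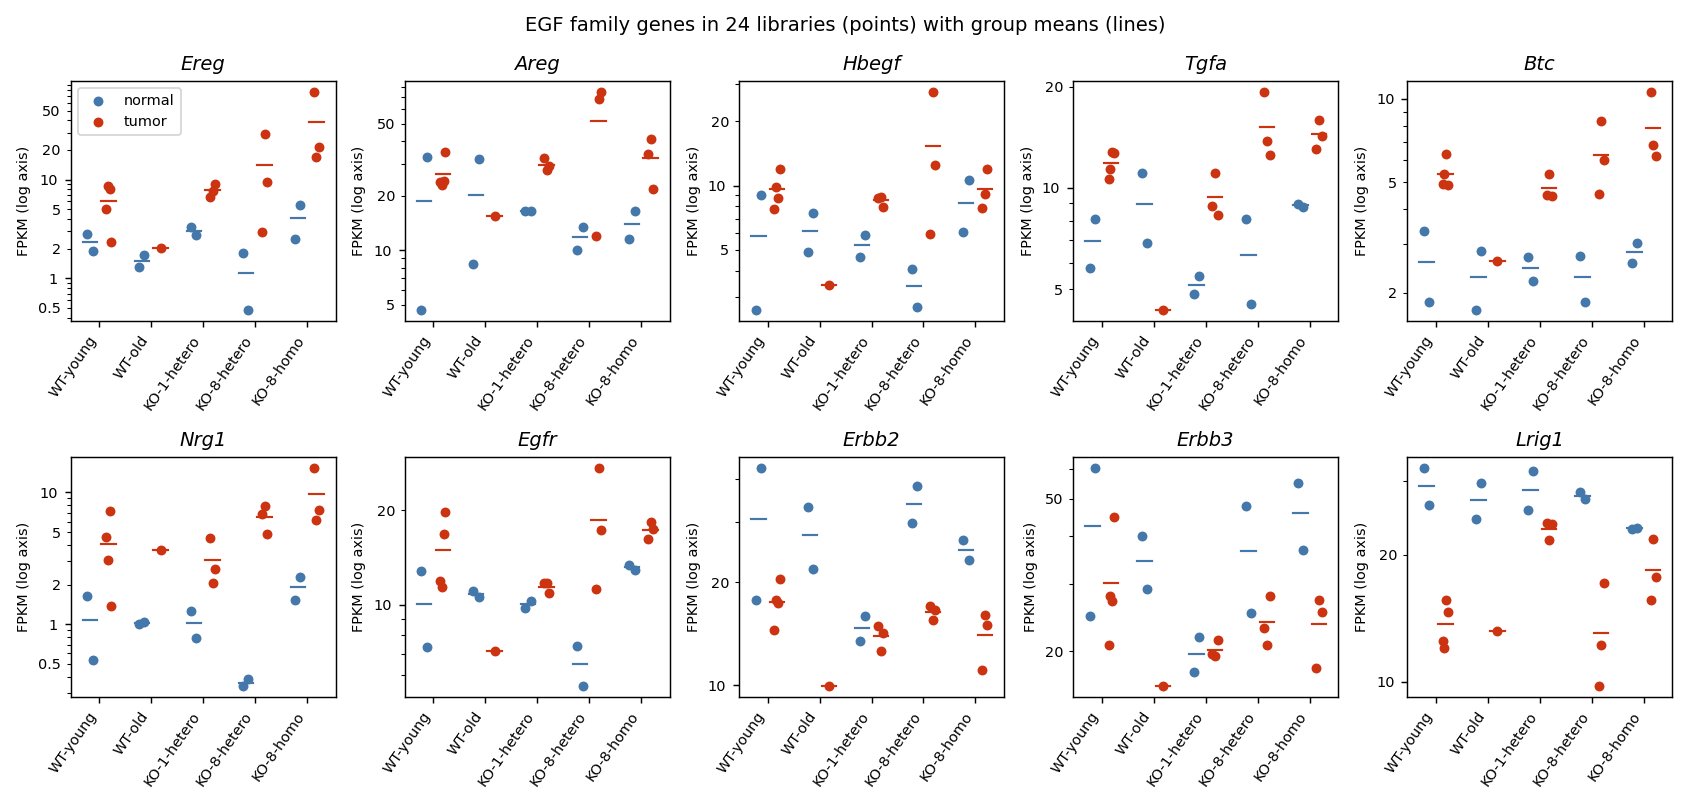
FPKM of each of the 10 members (log axis) in the 5 title groups; points are single libraries, blue for normal tissue and red for tumors, and lines are group means. Ereg in KO tumors runs from 2.94 to 77.3 FPKM, and the 5 WT tumors hold Lrig1 at 12.0 to 15.6 FPKM, below every WT normal sample.

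Ereg encodes epiregulin, a ligand of EGFR and ERBB4. It stood at 5.04, 8.59, 8.1 and 2.31 FPKM in the 4 WT-young tumors and 2.02 in the WT-old tumor, against 2.81, 1.87, 1.29 and 1.72 in the WT normal samples. In KO tumors it ran from 2.94 through a median of 9.55 to 77.3 FPKM, against 0.474, 2.62 and 5.57 in KO normal samples. WT tumors and normal samples overlapped, and 8 of 9 KO tumors lay above every KO normal sample. Ereg rose in KO tumors by a log2 difference of 2.09 (SE 0.472, limma adjusted p = 0.00118), and the WT difference was 0.95 (SE 0.601, adjusted p = 0.232). Without the Xist-positive libraries the KO difference was 1.73 with an adjusted p of 0.11.

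Areg encodes amphiregulin, an EGFR ligand that is abundant in injured epithelium. In the WT tumors it was at 23.9, 22.8, 24, 34.7 and 15.4 FPKM, and in the WT normal samples at 4.65, 32.6, 8.41 and 32. KO tumors spanned 12.0, 32.3 and 74.9 FPKM (lowest, median, highest) and KO normal samples 10, 15.0 and 16.4. The WT tissues overlapped almost fully, and 1 KO tumor, of KO-8-hetero, lay within the range of the KO normal samples. Areg rose in KO tumors (1.21, SE 0.366, limma adjusted p = 0.00972) and gave 0.65 (SE 0.466, adjusted p = 0.297) with the WT label. Without the Xist-positive libraries the KO value was 1.08 with an adjusted p of 0.192.

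Hbegf encodes heparin-binding EGF-like growth factor. It was at 7.73, 9.85, 8.75, 12 and 3.43 FPKM in WT tumors and 2.61, 9.03, 4.87 and 7.4 in WT normal samples. In KO tumors it ran from 5.94 through 8.85 to 27.4 FPKM, and in KO normal samples from 2.71 through 5.26 to 10.6. The tissues overlapped under both labels, with 3 of 9 KO tumors above every KO normal sample. The KO difference passed the test (0.83, SE 0.293, limma adjusted p = 0.0234), and the WT value was 0.44 (adjusted p = 0.381). The KO call was lost without KO-8-hetero normal replicate 1 (0.77, adjusted p = 0.0508) or replicate 2 (0.68, adjusted p = 0.0712), with quantile normalization (0.67, adjusted p = 0.0707), and without the Xist-positive libraries (0.31, adjusted p = 0.654).

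Tgfa encodes transforming growth factor alpha, an EGFR ligand of the surface epithelium. The WT tumors held 10.6, 11.4, 12.8, 12.7 and, in WT-old, 4.33 FPKM, and the WT normal samples 5.79, 8.1, 11.1 and 6.86. KO tumors spanned 8.29, 13.1 and 19.3 FPKM and KO normal samples 4.52, 6.78 and 8.97. The WT-old tumor lay below all WT normal samples, and 7 of 9 KO tumors lay above all KO normal samples. Tgfa rose in KO tumors (0.85, SE 0.211, limma adjusted p = 0.00241). With the WT label it gave 0.30 (SE 0.269, adjusted p = 0.411), a value that became -0.08 when the title groups were weighted equally. The KO call was lost without the Xist-positive libraries (0.54, adjusted p = 0.204).

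Btc encodes betacellulin. It was at 4.93, 5.35, 6.35, 4.88 and 2.6 FPKM in WT tumors against 3.33, 1.85, 1.73 and 2.82 in WT normal samples. KO tumors ran from 4.47 through 6.03 to 10.6 FPKM, above every KO normal sample (1.86, 2.63 and 3.03). Btc was the only member whose KO tumors and KO normal samples did not overlap, as was so for 15.5% of all genes (both directions). Btc rose under both labels, by 0.75 in WT (SE 0.218, limma adjusted p = 0.0125) and 1.02 in KO (SE 0.171, adjusted p = 6.62e-05). The WT call was lost without WT-old normal replicate 1 (0.65, adjusted p = 0.0526), with quantile normalization (0.56, adjusted p = 0.0633) and with title groups weighted equally (0.50, adjusted p = 0.0613).

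Nrg1 encodes neuregulin 1, the ligand of ERBB3 and ERBB4. The WT tumors were at 4.58, 3.05, 7.27, 1.37 and 3.67 FPKM and the WT normal samples at 1.63, 0.533, 1.00 and 1.04. KO tumors ran from 2.07 through 6.17 to 15.4 FPKM and KO normal samples from 0.34 through 1.03 to 2.28. In 4 of 5 WT tumors and 8 of 9 KO tumors Nrg1 lay above all normal samples of the same label. It rose by 1.19 in WT (SE 0.390, limma adjusted p = 0.0242) and 1.73 in KO (SE 0.306, adjusted p = 1.19e-04). Summed fibroblast markers were 545 to 1132 FPKM in KO tumors against 335 to 457 in KO normal samples (4 of 6 called higher, 1 lower), and 293 to 845 against 181 to 537 with the WT label (1 of 6 called higher), and their part in the Nrg1 values was not tested. The KO call held under every alternative and with each library left out. The WT call was lost without WT-young tumor replicate 1 or 3, WT-young normal replicate 2 or WT-old normal replicate 1, and without all WT-old libraries (1.19, adjusted p = 0.123).

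**Figure D2:**
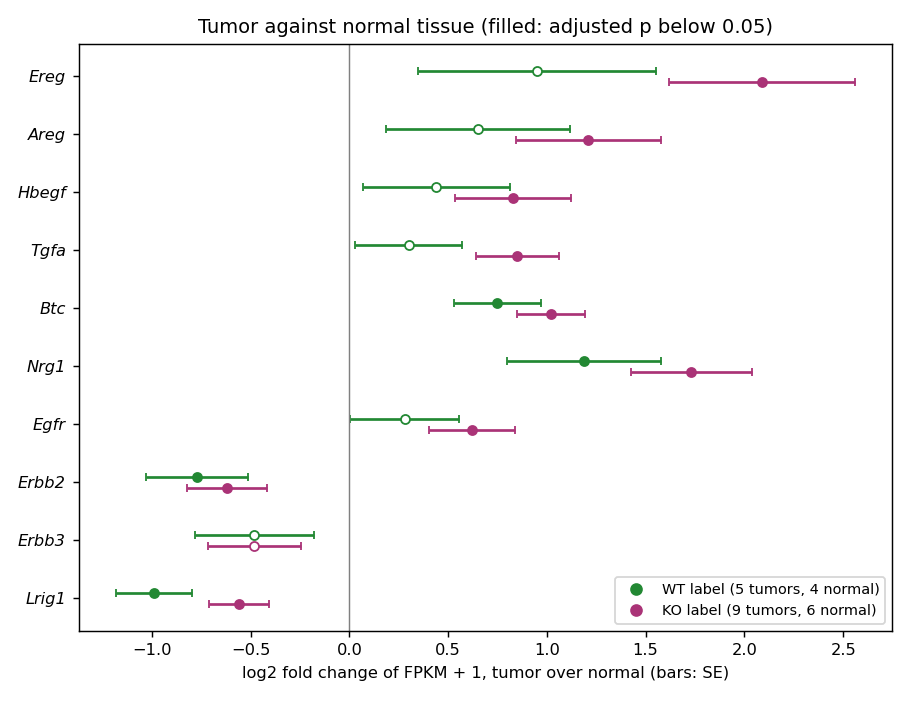
Log2 fold change of FPKM + 1, tumor over normal tissue, for each member with the WT label (5 tumors, 4 normal) and the KO label (9 tumors, 6 normal); bars are the SE from limma and filled points have an adjusted p below 0.05. The 6 ligands and Egfr lie above 0 under both labels, although Tgfa and Egfr in WT become -0.08 and 0.00 with title groups weighted equally, and Erbb2, Erbb3 and Lrig1 lie below 0, although Erbb3 in KO becomes 0.01 with TPM rescaling.

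Egfr encodes the receptor of most of these ligands. Its WT tumors held 11.9, 11.4, 16.8, 19.8 and 7.11 FPKM and its WT normal samples 12.8, 7.36, 11.1 and 10.6. KO tumors spanned 10.9, 16.2 and 27.3 FPKM and KO normal samples 5.52, 10 and 13.4. The tissues overlapped under both labels, and 5 of 9 KO tumors lay above all KO normal samples. Egfr rose with the KO label (0.62, SE 0.218, limma adjusted p = 0.023) and gave 0.28 (adjusted p = 0.458) with the WT label, which went to 0.00 with title groups weighted equally. The KO call was lost without KO-8-hetero normal replicate 1 (0.56, adjusted p = 0.0559) or 2 (0.48, adjusted p = 0.0753), without the Xist-positive libraries (0.23, adjusted p = 0.63), with median centring (0.52, adjusted p = 0.0511) and with a replicate block (0.57, adjusted p = 0.0518).

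Erbb2, the partner receptor with no ligand of its own, was at 14.5, 17.7, 17.4, 20.5 and 9.96 FPKM in WT tumors against 17.8, 43.2, 33.2 and 21.9 in WT normal samples. In KO tumors it ran from 11.1 through 15.0 to 17.0 FPKM, and in KO normal samples from 13.5 through 24.9 to 38.1. The tumors held the narrower range, and the 2 KO-1-hetero normal samples, at 13.5 and 15.9, lay among the tumors. Erbb2 fell by 0.77 on the log2 scale with the WT label (SE 0.257, limma adjusted p = 0.0266) and by 0.62 with the KO label (SE 0.202, adjusted p = 0.0153). With values rescaled to TPM the differences were -0.50 (adjusted p = 0.131) and -0.15 (adjusted p = 0.533). Leaving out WT-young tumor replicate 1, WT-young normal replicate 2, the WT-old tumor or WT-old normal replicate 1 also ended the WT call, as did leaving out all WT-old libraries (-0.65, adjusted p = 0.163). The KO call was lost without KO-8-hetero normal replicate 2 (-0.48, adjusted p = 0.0533) and without the Xist-positive libraries (-0.74, adjusted p = 0.0516).

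Erbb3, the receptor of neuregulins, had the highest median of the members in normal tissue under both labels, although another member was higher in some normal libraries. It stood at 20.7, 27.8, 27, 44.9 and 16.2 FPKM in WT tumors and 24.7, 60.4, 39.9 and 29 in WT normal samples. KO tumors spanned 18, 21.4 and 27.8 FPKM and KO normal samples 17.6, 31.0 and 54.9. The ranges overlapped under both labels. The log2 difference was -0.48 under each label (limma adjusted p = 0.227 with WT and 0.0998 with KO) and 0.01 with the KO label after TPM rescaling. It passed the test with the KO label without KO-1-hetero normal replicate 1 (-0.63, adjusted p = 0.0303), without the Xist-positive libraries (-1.02, adjusted p = 0.0263) and with median centring (-0.57, adjusted p = 0.048).

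Lrig1, the receptor inhibitor and crypt progenitor marker, was at 12.5, 12, 15.6 and 14.6 FPKM in the WT-young tumors and 13.2 in the WT-old tumor, against 32.2, 26.2, 24.3 and 29.6 in WT normal samples. KO tumors spanned 9.77, 17.7 and 23.8 FPKM and KO normal samples 23.0, 26.3 and 31.6. All WT tumors lay below all WT normal samples, as was so, in either direction, for 23.3% of all genes, and no other member had separate WT groups. With the KO label 7 of 9 tumors lay below all normal samples. Lrig1 fell by 0.99 with the WT label (SE 0.193, limma adjusted p = 7.55e-04) and by 0.56 with the KO label (SE 0.151, adjusted p = 0.00457). The WT call held under every alternative and with each library left out. The KO value was -0.08 (adjusted p = 0.663) with TPM rescaling and -0.44 (adjusted p = 0.187) without the Xist-positive libraries. With all 24 libraries combined, no member separated the 14 tumors from the 10 normal samples, as 6.7% of all genes did. The annotated span of Lrig1 overlaps that of Slc25a26 by 131 bases, that of Erbb2 overlaps Mien1 by 9, and that of Ereg overlaps the lncRNA Gm19610 by 319. The longest overlaps were those of Nrg1 with the lncRNA Gm39155 (119525 bases) and of Egfr with the lncRNA Egfros (21103 bases), and introns count in them. Nrg1 also overlaps the protein-coding Gm3985 by 3105 bases and Hbegf the lncRNA Gm41698 by 613. The sources used here do not say whether fragments were counted by strand, so reads in those stretches cannot be assigned.

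Exact two-sided permutation tests over samples, one member at a time and unadjusted, gave p = 0.0159 for Lrig1 with the WT label, the smallest that 5 tumors and 4 normal samples allow. Nrg1 and Erbb2 each gave an exact p of 0.0317, Btc 0.0476 and Ereg 0.0794. With the KO label the exact p was 0.0004 for Btc, the smallest that this design allows, 0.000799 for Nrg1, 0.0012 for Ereg, 0.002 for Tgfa and 0.0024 for Lrig1. For Erbb3 with the KO label the exact p was 0.0675.

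Within title groups the members split unevenly, although these comparisons rest on only 2 normal samples each. In KO-1-hetero 1 member passed the limma test, Tgfa, at 0.75 (adjusted p = 0.0369), where 14.1% of all genes did, and the count was 0 without tumor replicate 1 or 2 or normal replicate 1 or 2 of that group. In KO-8-hetero 8 members passed, where 43.1% of genes did: Ereg, Hbegf, Tgfa, Btc, Nrg1 and Egfr rose, and Erbb2 and Lrig1 fell. There Nrg1 differed by 2.44 (adjusted p = 4.19e-04), Tgfa by 1.17 (adjusted p = 8.51e-04), Egfr by 1.32 (adjusted p = 0.00168) and Lrig1 by -1.06 (adjusted p = 5.08e-04). Without KO-8-hetero normal replicate 2 the count was 5. In KO-8-homo 4 members passed, where 23% of genes did: Ereg, Btc and Nrg1 rose and Erbb2 fell. The Ereg difference there was 2.72 (adjusted p = 0.011), but 2.07 (adjusted p = 0.0541) without tumor replicate 1 and 2.27 (adjusted p = 0.123) without normal replicate 1, and the counts without them were 2 and 0. In WT-young 4 members passed, where 26.1% of genes did: Tgfa, Btc and Nrg1 rose, and Lrig1 fell by 1.04 (adjusted p = 7.58e-04). That count was 2 without WT-young tumor replicate 3. The Lrig1 call in KO-8-hetero was lost with TPM rescaling (-0.45, adjusted p = 0.0733). Differences between these title groups in how tumor and normal tissue differ were not tested.

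The summed FPKM of the 6 ligands put the members on 1 scale. The sum was 94.9 ± 40.8 (SD, n = 9) in KO tumors and 32.8 ± 7.91 (n = 6) in KO normal samples, and the ranges, 51.6 to 158 and 23.5 to 46.7, did not overlap. With the WT label it was 56.9 ± 15.0 (n = 5) in tumors and 38.8 ± 16.6 (n = 4) in normal samples, with overlapping ranges of 31.4 to 68.0 and 20.8 to 54.0. Areg had the highest mean share of the sum in all 4 sets. It was 40.1% in KO tumors, 43.9% in KO normal samples, 43.0% in WT tumors and 43.5% in WT normal samples. In WT normal samples the Areg share ran from 22.3% to 61.7%. Tgfa was ahead of Areg in WT-young normal replicate 1 (27.8% against 22.3%) and WT-old normal replicate 1 (39.1% against 29.6%). The same was so in KO-8-hetero tumor replicate 1 (37.4% against 23.3%). Ereg made up 18% ± 13.1 (n = 9) in KO tumors, from 5.7% to 48.8%, and on average 8.96% in WT tumors, 7.7% in KO normal and 6.21% in WT normal samples. Over all tumors Erbb3 was 1.72 ± 0.458 times Egfr (range 0.759 to 2.43), and over all normal samples 3.83 ± 2.09 times (1.8 to 8.21), with overlapping ranges. In KO-1-hetero the ratio was 1.76 in tumors and 1.96 in normal samples. Lrig1 was 1.22 ± 0.528 times Egfr in tumors (0.447 to 2.16) and 2.89 ± 0.982 times in normal samples (1.71 to 4.9), again overlapping. These sums, shares and ratios are descriptions with no test.

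**Figure D3:**
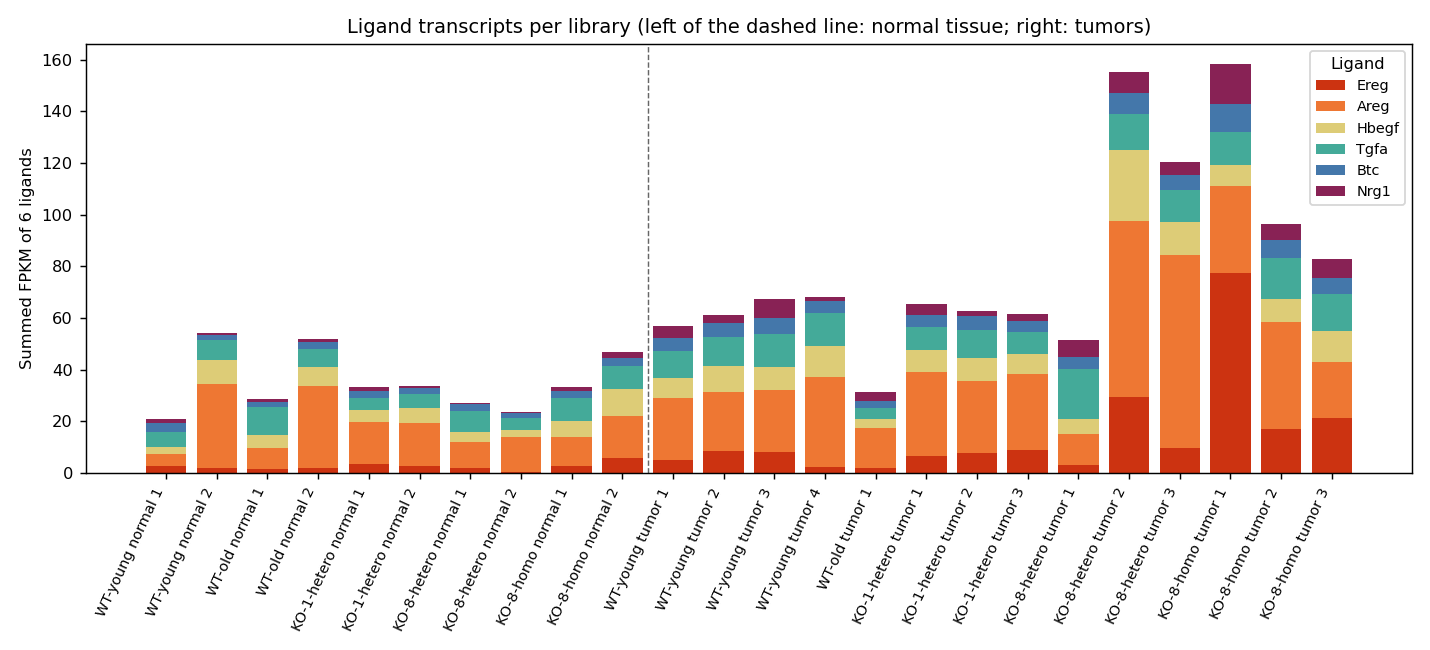
Summed FPKM of the 6 ligand genes in each of the 24 libraries, stacked by ligand from 0, with normal tissue left of the dashed line and tumors right of it. Areg is the main part in most libraries, and KO-8-homo tumor replicate 1, in which Ereg is the main part, reaches the highest sum of 158 FPKM.

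By median FPKM the order in WT normal samples was Erbb3 (34.5), Lrig1 (27.9), Erbb2 (27.5), Areg (20.2), Egfr (10.9), Tgfa (7.48), Hbegf (6.14), Btc (2.34), Ereg (1.8) and Nrg1 (1.02). In KO normal samples it began with the same 5 genes, from Erbb3 at 31.0 to Egfr at 10, and ended with Nrg1 at 1.03. In WT tumors Erbb3 (27.0) was followed by Areg (23.9), Erbb2 (17.4) and Lrig1 (13.2). In KO tumors Areg (32.3) led, ahead of Erbb3 (21.4), Lrig1 (17.7), Egfr (16.2) and Erbb2 (15.0). In each of the 4 orders the ranges of all neighbours overlapped over their samples. Within libraries, the gene with the higher median was the higher one in every library of its set for 6 of the 36 neighbouring pairs: Ereg over Nrg1 in both normal sets, Hbegf over Btc in KO normal samples, and Areg over Erbb2, Tgfa over Hbegf and Hbegf over Ereg in WT tumors.

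The question of the study, KO against WT, gave few differences among these genes. In tumors 0 of 10 members passed the limma test, where 0.00725% of all genes (1 gene) did. At an unadjusted p below 0.05 there were 2 members, Ereg and Lrig1, and 1147 genes in all. Ereg, at 20.1 ± 23.0 FPKM (SD, n = 9) in KO and 5.21 ± 3.1 (n = 5) in WT tumors, gave a log2 difference of 1.37 (SE 0.5, 95% interval 0.34 to 2.41, limma adjusted p = 0.468). KO-8-homo tumor replicate 1 weighs on the KO mean, which was 12.9 ± 8.85 FPKM over the other 8 tumors, and without it the log2 difference was 1.07 (adjusted p = 0.604). Of the KO tumors 6 of 9 lay above every WT tumor, with KO-8-homo tumor replicate 1 highest. The exact permutation p for Ereg was 0.034 unadjusted, and 0.0923 without the WT-old tumor. Lrig1, at 18.2 ± 5.02 FPKM in KO and 13.6 ± 1.49 in WT tumors, gave 0.35 (95% interval 0.02 to 0.68, adjusted p = 0.572; exact permutation p = 0.101). Here 7 of 9 KO tumors lay above every WT tumor and 1 lay below every one. The other members gave 0.52 for Nrg1, 0.49 for Areg, 0.34 for Hbegf and Tgfa, 0.32 for Btc, 0.24 for Egfr, -0.08 for Erbb2 and -0.20 for Erbb3; with equal weights for title groups Erbb2 and Erbb3 turned to 0.14 and 0.04. No member separated KO from WT tumors, as 0.601% of genes did. With title groups weighted equally, which gives the single WT-old tumor as much weight as the 4 WT-young tumors, Tgfa passed at 0.72 (adjusted p = 0.0133) and 771 genes passed in all.

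In normal tissue 0 members passed the limma test between KO and WT, where 0% of genes did. At an unadjusted p below 0.05 there were 0 members and 645 genes. Ereg differed by 0.24, Tgfa by -0.21 (0.18 without the Xist-positive libraries) and Erbb2 by -0.24. For the interaction, the test of whether tumor against normal differed between the labels, 0 members passed, with 0% of all genes, and at an unadjusted p below 0.05 there were 0 members and 654 genes. Its log2 value was 1.14 for Ereg (95% interval -0.44 to 2.72), 0.55 for Tgfa and 0.43 for Lrig1 (adjusted p = 0.986). More members were called with the KO label than with WT, but the difference between the labels passed the test for none of them by this fit. With title groups weighted equally the interaction passed for Tgfa (0.93, limma adjusted p = 0.0472). That setting gives the single WT-old tumor, with Tgfa at 4.33 FPKM, as much weight as the 4 WT-young tumors. The share of all genes passing the interaction under it is not given here, so the call cannot be taken as particular to Tgfa.

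**Figure D4:**
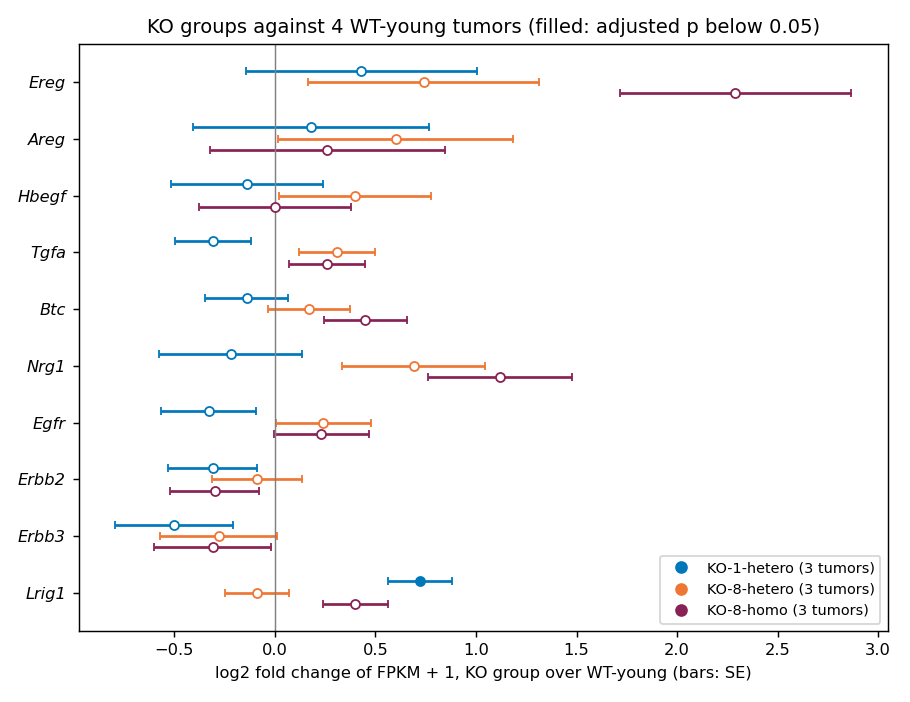
Log2 fold change of FPKM + 1 in the tumors of each KO group (3 tumors each) over the 4 WT-young tumors, for each member; bars are the SE from limma and filled points have an adjusted p below 0.05. Lrig1 in KO-1-hetero, at 0.72, is the only filled point, and Ereg in KO-8-homo, at 2.29, lies farthest from 0; Hbegf in KO-8-homo, at 0.00, turns to -0.03 with median centring and -0.01 with quantile normalization.

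Tumors of the 3 KO title groups were each compared with those of WT-young, which all 3 comparisons share. In KO-8-homo tumors Ereg was at 77.3, 17.1 and 21.3 FPKM, against 5.04, 8.59, 8.1 and 2.31 in WT-young tumors. All 3 lay above all 4, and tumor replicate 1 stood far above the rest. The log2 difference was 2.29 (SE 0.574, 95% interval 1.08 to 3.50, unadjusted p = 9.44e-04), but the limma adjusted p over all genes was 0.117. Of the members 0 passed this comparison, where 0.457% of genes did, and 4 members and 1399 genes had an unadjusted p below 0.05. Nrg1, at 15.4, 6.17 and 7.38 FPKM, gave 1.12 (adjusted p = 0.243), Btc 0.45 (adjusted p = 0.471) and Lrig1, at 15.6, 21.8 and 17.7 FPKM, 0.40 (adjusted p = 0.399). Ereg, Tgfa and Lrig1 had KO-8-homo values wholly above WT-young, as 21.2% of genes were separate in either direction. The Ereg share of the ligand sum was 30.8% ± 16.2 (n = 3) in KO-8-homo and 9.6% ± 4.66 (n = 4) in WT-young tumors. The other members gave 0.26 for Areg and Tgfa, 0.23 for Egfr, -0.30 for Erbb2 and -0.31 for Erbb3; Hbegf gave 0.00, and -0.03 or -0.01 with median centring or quantile normalization. Summed neutrophil markers were 457 to 1610 FPKM in KO-8-homo and 91.0 to 521 in WT-young tumors. Macrophage markers were 675 to 1773 and 273 to 437, and smooth muscle markers 454 to 970 and 172 to 368. Epithelial markers were lower in sum, at 4887 to 5631 against 6227 to 10182. Of all genes only 8 were called higher and 55 lower in this comparison. The part of these marker sums in the Ereg values was not tested.

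In KO-1-hetero tumors Lrig1 was at 23.8, 21.7 and 23.7 FPKM, against 12.5, 12, 15.6 and 14.6 in WT-young tumors. The groups did not overlap, as was so for 27.4% of genes. Lrig1 was 0.72 higher (SE 0.160, limma adjusted p = 0.0285), the only member called in this comparison, in which 2.88% of all genes were. The call was lost without either replicate 1 or 3 of the KO-1-hetero tumors, without replicate 1 or 2 of WT-young, and without the Xist-positive libraries (0.70, adjusted p = 0.061). The same tumors had more smooth muscle marker RNA (701 to 1058 FPKM against 172 to 368 in WT-young, 2 of 6 markers called higher), more B and plasma cell marker RNA (763 to 883 against 101 to 305, 3 of 4 tested called higher) and more macrophage marker RNA (743 to 1036 against 273 to 437, 1 of 6 called higher). T cell markers summed to 20.9 to 42.8 FPKM against 5.82 to 15.1 (1 of 4 tested called higher), and goblet cell markers to 3663 to 4979 against 1373 to 3510 (0 of 5 called). Summed epithelial markers were 5066 to 6184 FPKM against 6227 to 10182, with 1 of 6 called lower. Their part in the Lrig1 difference was not tested. The other members gave log2 differences from 0.43 for Ereg to -0.50 for Erbb3, with Tgfa at -0.31, Egfr at -0.33 and Nrg1 at -0.22.

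In KO-8-hetero tumors 0 members passed against WT-young, where 0.00725% of genes did, and 0 members and 961 genes had an unadjusted p below 0.05. Ereg, at 2.94, 29.3 and 9.55 FPKM, gave 0.74 and Areg, at 12, 68.4 and 74.9 FPKM, 0.60. These tumors were spread widely, and the groups overlapped for all 10 members. Nrg1 gave 0.69, Hbegf 0.40, Tgfa 0.31 and Lrig1 -0.09. Without tumor replicate 2 of KO-8-hetero, Ereg gave 0.00, Hbegf -0.12, Btc -0.03 and Egfr -0.06; without tumor replicate 1 Lrig1 gave 0.08, and 242 genes passed in place of 1.

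Homozygous against heterozygous KO-8 tumors gave 0 members by limma, where 0.0507% of genes passed, and 2 members and 801 genes at an unadjusted p below 0.05. Ereg differed by 1.55 (adjusted p = 0.78) and Lrig1 by 0.49 (adjusted p = 0.651). KO-1-hetero against KO-8-hetero tumors gave 0 members, where 0% of genes passed, and 4 members and 1363 genes at an unadjusted p below 0.05. Lrig1 was 0.81 higher (adjusted p = 0.178), Tgfa -0.62 (adjusted p = 0.291), Nrg1 -0.91 (adjusted p = 0.429) and Egfr -0.57 (adjusted p = 0.454). Here 4 members had separate groups, Lrig1 above and Tgfa, Nrg1 and Erbb2 below, as 13.6% of all genes did. Without KO-8-hetero tumor replicate 3 the Lrig1 difference passed (1.01, adjusted p = 0.0103).

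Members were also compared with each other across the 14 tumors, in 6 pairs on the log2(FPKM + 1) scale, with p from 100000 permutations and Benjamini-Hochberg adjustment over the 6. Erbb2 and Erbb3 moved together most closely (Pearson r = 0.87, permutation p = 2e-05, the smallest they can give, adjusted 0.00012; Spearman rho = 0.91, adjusted permutation p = 0.00012). Without the 2 tumors farthest from the median r was 0.87, and within the 9 KO tumors it was 0.75 (exact permutation p = 0.00853, adjusted 0.0512). Areg and Hbegf gave r = 0.75 (permutation p = 0.00334, adjusted 0.01) and rho = 0.62 (adjusted permutation p = 0.0638). Without the 2 farthest tumors r was 0.60, and within the KO tumors 0.71 (exact permutation p = 0.0214, adjusted 0.0641). The 5 WT tumors were too few for a value of their own. Ereg did not pass with Areg (r = 0.48, adjusted permutation p = 0.136), its neighbour on chromosome 5, or with Tgfa (r = 0.36, adjusted permutation p = 0.21). Egfr with Erbb2 gave r = 0.50 (adjusted permutation p = 0.136), and Egfr with Lrig1 r = 0.00 (adjusted permutation p = 0.992). Both genes of a pair come from the same libraries and so share their depth and cell content, whose part in these correlations was not tested.

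**Figure D5:**
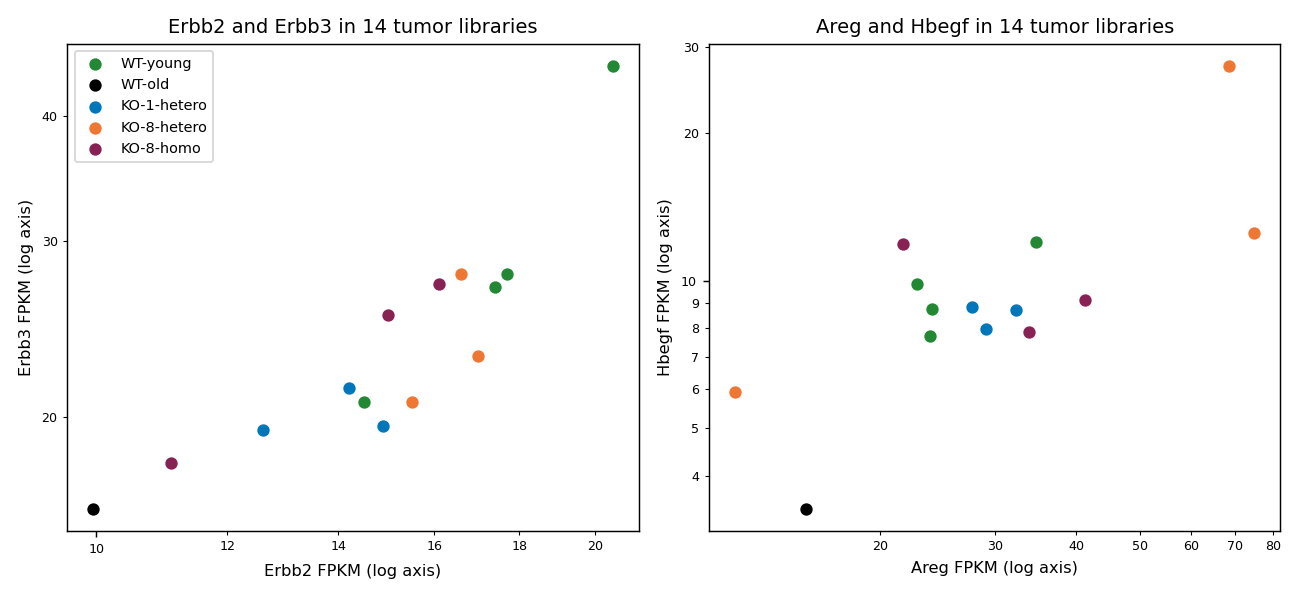
FPKM of Erbb3 against Erbb2 and of Hbegf against Areg in the 14 tumors, all axes logarithmic, each point 1 tumor coloured by title group. Erbb2 and Erbb3 rise together (r = 0.87), with the WT-old tumor lowest, and Areg and Hbegf do so with more scatter (r = 0.75), 2 KO-8-hetero tumors holding the highest values.

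The other genes of the pathway came from 5 lists. Of 6 other EGF family genes 2 were tested, and the other 4 (Epgn, Erbb4, Nrg2 and Nrg3) were under the filter. Egf, the founding EGFR ligand, was at 0.398 ± 0.138 FPKM in WT tumors (n = 5) and 1.66 ± 0.886 in WT normal samples (n = 4), and fell by 0.87 with the WT label (limma adjusted p = 0.00447) and by 0.54 with the KO label (adjusted p = 0.0126). Nrg4 did not pass. No gene of the 5 lists passed in any comparison of KO with WT.

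Of the 9 genes for ligand release and trafficking, 4 rose and 0 fell in tumors with the WT label, and 6 rose and 0 fell with the KO label (list medians 0.50 and 0.64, all genes 0.02). Of all genes 30.4% (WT) and 47.2% (KO) were called, in either direction. Adam12, a membrane metalloprotease, rose by 1.64 (WT) and 1.81 (KO), from 0.125 ± 0.0169 FPKM in WT normal samples to 2.95 ± 2.04 in WT tumors. Adam10, a main sheddase of Egf and Btc, rose by 0.62 and 0.84, and Rhbdf2, which carries ADAM17 to the cell surface, by 0.50 and 0.71. With the WT label the Adam10 call was lost without WT-young tumor replicate 1 or WT-young normal replicate 1, and the Rhbdf2 call without WT-young tumor replicate 1 or 3, WT-young normal replicate 2 or WT-old normal replicate 2. Leaving out WT-young tumor replicate 1 brought the WT count to 1, and leaving out WT-young tumor replicate 3 or WT-young normal replicate 1 brought it to 2.

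Of 10 receptor-proximal inhibitors, 1 rose and 1 fell with the WT label, and 3 rose and 1 fell with the KO label (list medians 0.03 and 0.26). Both shares were below the 30.4% and 47.2% of all genes called. Lrig3, a relative of Lrig1, fell by 1.5 and 1.49, from 20.2 ± 6.6 FPKM in WT normal samples to 6.69 ± 3.04 in WT tumors and from 17.0 ± 2.97 to 5.51 ± 1.5 with the KO label. Rnf41, a ubiquitin ligase that acts on ERBB3, rose by 0.45 with the WT label (limma adjusted p = 0.0125) and gave 0.24 (adjusted p = 0.056) with the KO label. Without WT-young tumor replicate 4 or WT-young normal replicate 2 the WT count of risen inhibitors was 2.

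Of 21 genes of the signal relay to ERK and AKT, 1 rose and 3 fell with the WT label, and 4 rose and 3 fell with the KO label (list medians -0.09 and 0.05). Both shares of the list were below the 30.4% and 47.2% of all genes called. Nras, a small GTPase, rose by 0.69 and 0.88. Mapk3, the kinase ERK1, fell by 0.81 and by 0.68, from 256 ± 40.8 FPKM in WT normal samples to 147 ± 29.3 in WT tumors. Araf, a RAF kinase, gave -0.32 and -0.24, both called, but 0.25 with the KO label after TPM rescaling. Hras, a small GTPase, fell by 0.48 with the WT label (limma adjusted p = 0.0405) and gave -0.32 (adjusted p = 0.0574) with the KO label and 0.16 there after TPM rescaling. The WT call of Nras, the single risen gene, was lost without WT-young tumor replicate 1, 2 or 3, WT-young normal replicate 1 or 2, or WT-old normal replicate 1. The WT call of Hras was lost without WT-young tumor replicate 1 or 2, WT-young normal replicate 1, the WT-old tumor, or WT-old normal replicate 1 or 2. Without WT-young tumor replicate 4 the WT count of risen relay genes was 2. With the KO label that count was 2 without KO-8-hetero tumor replicate 1 or KO-8-homo tumor replicate 2, and the count of fallen genes was 5 without KO-1-hetero normal replicate 1.

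Of 16 genes induced by ERK or acting in its feedback 15 were tested, and 6 rose and 1 fell with the WT label, and 9 rose and 0 fell with the KO label (list medians 0.19 and 0.70), where 30.4% and 47.2% of all genes were called in either direction. Dusp4, a phosphatase of nuclear ERK, rose by 2.1 and 2.02, from 2.67 ± 1.14 to 14.7 ± 4.05 FPKM with the WT label and from 1.93 ± 0.422 to 12.6 ± 7.15 with the KO label. Dusp6, a phosphatase of cytoplasmic ERK, rose by 0.82 and 1.02, and Ier3, an immediate early gene, by 1.63 and 2.22. Spry2, an inhibitor of receptor signalling, fell by 0.60 with the WT label (limma adjusted p = 0.0419) and gave -0.25 (adjusted p = 0.23) with the KO label, which turned to 0.20 after TPM rescaling and 0.04 without the Xist-positive libraries. The WT call of Spry2 was lost without WT-young tumor replicate 1, 2 or 3, WT-young normal replicate 2, the WT-old tumor or WT-old normal replicate 2. The neutrophil, colonocyte and smooth muscle markers given above moved with the same contrast, and their part in these lists was not tested.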

How the data were processed

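Total RNA of 24 colorectal samples was sequenced with a stranded mRNA kit, per the labels' protocols. The deposited values are FPKM per gene symbol, made by the authors; the submitters' processing notes name TopHat2 2.1.1, Bowtie2 2.2.8, SAMtools 0.1.18, Cuffdiff 2.2.1 and mm10, and the annotation is not given in the sources used here. Genes with at least 1 FPKM in at least 4 libraries were tested with limma 3.58.1 (R 4.3.3) on log2(FPKM + 1), with 1 mean for each of the 10 combinations of title group and tissue or of label and tissue, as the comparison needs, and Benjamini-Hochberg adjustment over all genes tested at 0.05. Exact permutation tests (scipy 1.17.1) are unadjusted. The fit was tested on simulated data. Other genes of the pathway were named by p with the WT label, up to 3 each way per list. The members, lists and comparisons were chosen with earlier results of these data known. Alternatives were other pseudocounts (0.1, 0.5), filters, scalings, weights, left-out libraries and a replicate block. Whether replicate numbers pair tumor and normal samples is not given, and the main comparisons did not pair them. No 2 libraries held identical values.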

Additional observations from a re-analysis of the deposited data

Results flagged for a closer look

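Of 50 group and member combinations with enough samples, 6 held a library far from the others by Dixon's test. For normally distributed values chance flags about 1 in 20. The test used FPKM without a log scale, and the WT-young tumors also count among the WT tumors, so that rate is only a guide. KO-8-homo tumor replicate 1 was the highest of the 9 KO tumors for Ereg, at 77.3 FPKM where the next was 29.3, and for Nrg1, at 15.4 FPKM where the next was 7.83. KO-8-hetero tumor replicate 2 was the highest for Hbegf, at 27.4 FPKM where the next was 12.5, and for Egfr, at 27.3 FPKM where the next was 18.3. These 2 tumors also held 1610 and 1795 FPKM of summed neutrophil markers, the part of which in the values was not tested. The WT-old tumor was the lowest of the 5 WT tumors for Tgfa, at 4.33 FPKM where the next was 10.6. WT-young tumor replicate 4 was the highest of its 4 for Areg, at 34.7 FPKM where the next was 24.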

How the results depend on the processing

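Of 1236 log2 differences of single genes, for 107 results under other settings, 1170 kept their direction and side of the threshold, and 12 reversed direction. With 1 library left out, 1033 of 1100 did so and 10 reversed. Counts of genes called, exact tests and correlations are not among these values, and changes in the counts are given below. TPM rescaling moved the median log2 difference of all genes by 0.27 (WT) and 0.45 (KO) in tumor against normal, and the genes called higher and lower were 3952 and 1075 (WT) and 7727 and 1075 (KO), in place of 2143 and 2049, and 3321 and 3199. Median centring gave 1613 and 2538, and 2503 and 3975. The causes of the changes below were not tested.

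Without the WT-old libraries 2 members passed in WT tumor against normal, and all genes passing went from 4192 to 2682. Without the Xist-positive libraries 3 passed in KO tumor against normal (all genes from 6520 to 3670), and 0 in KO-1-hetero against WT-young tumors, where Lrig1 had passed. With title groups weighted equally 1 member, Tgfa, passed in KO against WT tumors and 1, also Tgfa, in the interaction. In both, the single WT-old tumor weighed as much as the 4 WT-young tumors. In KO-1-hetero tumor against normal the count was 2 with a pseudocount of 0.1 or 0.5, with 8 libraries required by the filter or without WT-old, 0 with no filter or with quantile normalization, and 3 with TPM rescaling.

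Values that changed sign were, with equal weights, Tgfa at -0.08 and Egfr at 0.00 in WT tumor against normal and Erbb2 at 0.14 and Erbb3 at 0.04 in KO against WT tumors. With TPM rescaling of KO tumor against normal they were Erbb3 at 0.01, Araf at 0.25, Hras at 0.16 and Spry2 at 0.20. Without the Xist-positive libraries they were Spry2 at 0.04 there and Tgfa at 0.18 in KO against WT normal tissue. Hbegf in KO-8-homo against WT-young tumors was -0.03 with median centring and -0.01 with quantile normalization, and r of Egfr and Lrig1 was -0.32 within KO tumors.

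With 1 library left out the members called ranged from 1 to 4 in WT and 6 to 10 in KO tumor against normal, 0 to 1 in KO-1-hetero against WT-young tumors, 0 to 1 in KO-1-hetero against KO-8-hetero tumors, 0 to 1 in KO-1-hetero tumor against normal, 5 to 9 in KO-8-hetero, 0 to 4 in KO-8-homo and 2 to 4 in WT-young. The shares of all genes called in these refits are not given here, so the ranges show only how far the member counts moved. Erbb2 in KO against WT tumors ranged from -0.23 to 0.01, and Nrg1 in KO-1-hetero against WT-young from -0.54 to 0.06. In KO-8-hetero against WT-young, Ereg ranged from 0.00 to 1.47, Hbegf from -0.12 to 0.90, Btc from -0.03 to 0.35, Egfr from -0.06 to 0.54 and Lrig1 from -0.29 to 0.08. In KO-8-homo against WT-young Hbegf ranged from -0.15 to 0.12.

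Whether the replicate numbers pair the samples could not be told. Same-numbered tumor and normal samples, as deviations from their group means, correlated at -0.159 to 0.355 over 8 pairs, 1 of them over 0.1. With 2 normal samples per title group these deviations mirror each other, so the correlations cannot settle the pairing. With a replicate block 4 members passed in WT and 8 in KO tumor against normal, 1 in KO-1-hetero against WT-young tumors, 9 in KO-8-hetero, 5 in KO-8-homo and 4 in WT-young tumor against normal. Of all genes, 230 in place of 397 passed in KO-1-hetero against WT-young tumors. In the main fits of the tumor and normal comparisons 30.4% of all genes passed in WT, 47.2% in KO, 43.1% in KO-8-hetero, 23% in KO-8-homo and 26.1% in WT-young. Their shares with the block are not given here, so those member counts say nothing particular about the members. The depth of FPKM values is known only in relative terms, which limits low genes such as Nrg1 in normal tissue.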
